A study of Mus musculus with 4 samples.

Results

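Principal 4 is a small group of epithelial cells from the caput and corpus of the mouse epididymis, and its transcripts were dominated by a few secreted proteins while genes of the ribosome itself were scarce. Its members were chosen as the cells that carry 1 value of the deposited cell type column, and there were 74 of them among 3956 principal cells and 8880 cells in all. The caput contributed 19 and the corpus 55, and the cauda and the vas deferens none. The closest population was principal 5, with 67 caput and 172 corpus cells. All 74 cells of principal 4 and 226 of the 239 cells of principal 5 came from the same cluster of 311 cells in the first round of clustering.

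The tissue was from FVB/NJ male mice of 10 to 12 weeks, without genetic change or treatment. Each region was a pool of 8 pieces from the same 4 mice, dissociated with collagenase and trypsin after washes that removed sperm, and sequenced as 1 library per region from the 3′ ends of transcripts with 10x Chromium chemistry. The study therefore has 4 libraries, 1 per region, and no value below has a replicate. The pieces only roughly followed the anatomical borders, so the caput and corpus cells of a population may come from neighbouring stretches of tubule. Since the populations were defined from the same counts, differences between them are given as descriptions, with no test.

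The epididymis is the coiled tube in which sperm leaving the testis become able to swim and fertilize. Principal cells form most of its lining, and they secrete proteins into the lumen and take up fluid and proteins from it. Secreted proteins enter the endoplasmic reticulum (ER) during synthesis, are folded there with the help of chaperones, and pass through the Golgi. The secreted genes belong to large families (lipocalins, beta-defensins, *Spink* protease inhibitors, *Rnase* and *Wfdc* genes) whose members are each used in a short stretch of the tube, and many of them depend on androgen.

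Levels are the unique molecular identifiers (UMIs, each standing for 1 captured transcript) of a gene summed over the cells of a population, per 1000000 UMIs of those cells (UPM). Intervals are 95% intervals that cover counting error only. Ratios are principal 4 over principal 5 unless another pair is named. Principal 4 held 115021 UMIs (23080 in the caput and 91941 in the corpus) and principal 5 held 484487, so that 3 UMIs, taken as the floor for a count of 0, correspond to 26.1 and 6.19 UPM. The tags sit at the 3′ end of a transcript, so UMIs do not grow with the length of a gene. A level in caput cells alone has a floor of 130.0 UPM.

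For 4 genes, the 250 bases before a transcript start of the RefSeq promoter table are shown because these genes were at least 2 times higher in principal 4 than in every other epididymal principal population and because their windows show both the presence and the absence of the motifs searched. The sequences are from RefSeq (GRCm38.p6, the assembly of mm10), read 5′ to 3′ on the strand of the gene. The gene bounds used elsewhere reach further out for *Lcn5* and *Rnase9*, so that the ends of those windows lie within the gene. Capitals mark AGAACA or its reverse complement TGTTCT, the half-site of the androgen receptor's DNA motif, and TATAAA on the gene's strand within 50 bases of the start.

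*Lcn5* (chr2:25657702-25657951, + strand): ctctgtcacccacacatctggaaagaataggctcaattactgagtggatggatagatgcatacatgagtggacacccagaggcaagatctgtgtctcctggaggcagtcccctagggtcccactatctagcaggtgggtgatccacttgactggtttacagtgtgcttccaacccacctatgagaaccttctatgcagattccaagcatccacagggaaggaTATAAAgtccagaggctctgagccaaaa
*Rnase9* (chr14:51041868-51042117, - strand): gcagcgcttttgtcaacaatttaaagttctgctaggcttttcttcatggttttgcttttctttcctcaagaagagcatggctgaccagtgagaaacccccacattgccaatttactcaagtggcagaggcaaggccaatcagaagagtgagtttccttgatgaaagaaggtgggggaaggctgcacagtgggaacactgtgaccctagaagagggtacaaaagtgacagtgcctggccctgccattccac
*Defb23* (chr2:152464621-152464870, - strand): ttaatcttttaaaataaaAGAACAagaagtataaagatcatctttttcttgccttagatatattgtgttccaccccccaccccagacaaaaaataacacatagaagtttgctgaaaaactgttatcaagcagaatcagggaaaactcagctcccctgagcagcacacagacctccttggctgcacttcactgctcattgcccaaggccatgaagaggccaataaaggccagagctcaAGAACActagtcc
*Pla2g7* (chr17:43568201-43568450, + strand): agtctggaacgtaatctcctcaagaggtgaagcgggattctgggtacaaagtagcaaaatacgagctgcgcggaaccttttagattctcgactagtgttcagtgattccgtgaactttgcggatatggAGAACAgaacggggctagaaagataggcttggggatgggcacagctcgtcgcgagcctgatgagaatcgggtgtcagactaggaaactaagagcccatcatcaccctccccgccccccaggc

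Windows were found for 11 of the 14 leading genes, 13 windows in all. The half-site stood in 2 of the 13, those of *Defb23* and *Pla2g7*, against 16.1% of all 32851 windows of this length. TATAAA within 50 bases of the start stood in 2 of the 13, those of *Lcn5* and *Agt*, against 2.63% of all windows. These are matches of letters only, and the motifs do not overlap each other.

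Of the 3 marker genes given for principal 4, *Rnase9* and *Clu* fitted the label and *Plac8* did not. *Rnase9* (chromosome 14, 51038459 to 51041903), a secreted member of the RNase A family without the catalytic residues, was at 24090.1 UPM in caput and 22199 UPM in corpus cells, and at 22578 UPM in all (21718 to 23464). That was 2.57 times the level of principal 5 (2.45 to 2.70), which came next. *Clu* (chromosome 14, 65968483 to 65981548) encodes clusterin, a secreted chaperone that coats sperm. It was at 34463 UPM (43674 in caput and 32151 in corpus cells), a level almost equal to the 32879 UPM of principal 3 (ratio 1.05, 1.01 to 1.09) and above the 12692 UPM of principal 5. With cells of at least 1000 UMIs only, the order of principal 3 and 4 for *Clu* turned (ratio 0.958).

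*Plac8* (chromosome 5, 100551589 to 100572253), a small cysteine-rich protein first described in placenta, went against the label. It had 16 UMIs in 9 of the 74 cells, 139 UPM (79.5 to 226), with 2 UMIs in caput and 14 in corpus cells. Principal 5 had 867 UPM, and the ratio was 0.160 (0.0909 to 0.264). After each cell was thinned to 1000 UMIs, *Plac8* had a UMI in 17.5% of 40 principal 4 cells (7.34 to 32.8, 34 shallower cells left out) and 42.9% of 105 principal 5 cells, and in 1.23% of basal cells from the caput and 0.754% of those from the corpus, a cell type that should lack it. Without thinning, the shares in the same order were 12.2%, 48.1%, 1.97% and 3.65%, at median depths of 1180, 721, 5488 and 5821 UMIs.

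Markers of other cell types were few in the 74 cells. Of 7 immune markers and 4 sperm markers in the table, none had a UMI in principal 4, and neither did *Krt5* and *Trp63*, which define basal cells, or *Foxi1* and *Atp6v1b1*, which define clear cells. The 8 stromal markers summed to 5 UMIs, the 8 muscle markers to 10 and the 8 endothelial markers to 13, of which *Egfl7* had 11. The basal list had 96 UMIs in 5 of its 8 genes (835 UPM against 345 in principal 5 and 9014 in basal cells), of which *Cldn4* and *Adm* held 62 and 27. The clear cell list had 3 UMIs (26.1 UPM) against 195 in principal 5 (402 UPM) and 20111 UPM in clear cells. No cell of principal 4 and 1 of principal 5 was called a doublet, and 1 barcode of principal 4 was also present in another library.

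**Figure D1:**
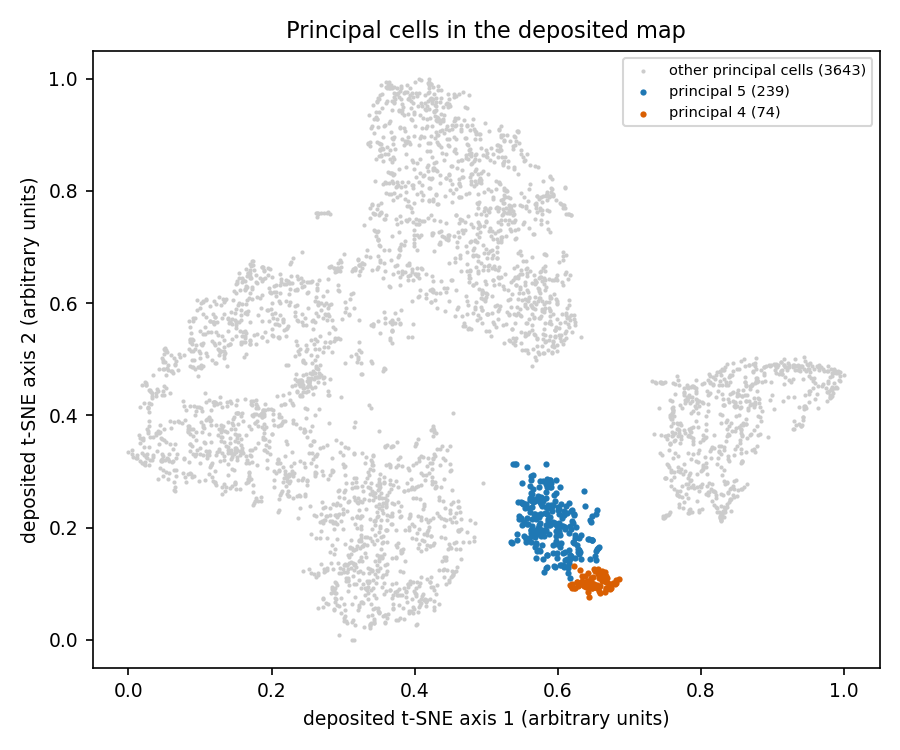
The deposited t-SNE map of the 3956 principal cells, with both axes in arbitrary units and each point 1 cell. Principal 4 (orange, 74 cells) formed a compact group that touched principal 5 (blue, 239 cells) and lay apart from the other principal cells (grey).

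As few as 9 genes held 50% of the UMIs of principal 4, and the 10 most abundant held 52.5% of its UMIs. In principal 5, 128 genes were needed for the same and the top 10 held 19.8%. The cells of principal 4 had a median of 1180 UMIs (254 to 5298) and 282 genes, against 721 UMIs and 382 genes in principal 5. At an equal 1000 UMIs per cell, the median was 307 genes in 40 cells (157 to 421), below the 359 of principal 3 (45 cells), the 518 of principal 5 (105 cells) and the 547 of principal 6 (139 cells).

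The most abundant gene was *Lcn5* (chromosome 2, 25657932 to 25662230), a secreted lipocalin that binds retinoids. It gave 14.8% of the UMIs, was present in all 74 cells, and took between 7.56% and 23.4% of the UMIs of a cell, with a median of 14.3%. In principal 5 the range was 0.668% to 11.1% with a median of 4.70%, so that the populations overlapped between the lowest cells of principal 4 and the highest of principal 5. *Spink8*, a secreted inhibitor of serine proteases, followed with 8.40% of the UMIs, then *AY761185* (6.28%) and another inhibitor, *Spink11* (5.65%), and all of these were present in all 74 cells as well. The *Spink8* share of a cell was 2.93% to 17.6% in principal 4 and 0% to 11.1% in principal 5, where 15 of 239 cells had no UMI of it.

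The other genes among the 15 with the most UMIs were *Clu*, *Gm6792* (3.09%, listed in RefSeq as *Epp13*), the beta-defensin genes *Spag11a*, *Defb30* and *Defb23*, the membrane protein gene *Itm2b* (2.59%), *Rnase9*, *Wfdc10*, the ER chaperone *Hspa5*, the membrane protein gene *Cuzd1* and *Npc2*, which encodes a secreted carrier of cholesterol. All 15 were higher in principal 4 than in principal 5, with ratios from 1.61 (*Spag11a*) to 3.63 (*Spink8*). Since they were picked by their UMIs in principal 4, this shared direction follows in part from the choice and is no test. Of 953 genes with a mean level of at least 100 UPM over both populations, 32.4% were higher in principal 4. Reads that fit more than 1 place were left out of the counts, so genes with close copies, such as beta-defensins and *Spink* genes, can be undercounted, equally in both populations.

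The secreted families were taken by gene name. They were the *Rnase*, *Lcn*, *Cst*, *Defb* (with *Spag11*), *Wfdc*, *Spink*, *Spint*, *Serpin*, *Gpx*, *Crisp* and *Adam* genes. Not every member is secreted, such as the cytosolic *Cstb*. The abundant genes *AY761185* and *Gm6792* are not in them and stayed in the denominator where the families were left out. With *Clu*, these 193 genes made up 49.3% of the UMIs of principal 4 (49.0 to 49.6) and 19.3% of those of principal 5. The shares were 52.8% in caput and 48.5% in corpus cells of principal 4, against 21.9% and 17.7% in principal 5. Per cell the share was 33.2% to 64.5% with a median of 49.2%. Principal 3, from the caput only, had 40.6%, principal 1 40.5% and principal 6 22.1%.

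A total of 388 genes reached 20 UMIs in principal 4, of which 14 were at least 2 times higher than in every other epididymal principal population (3.61%), and none reached 4 times. Since the cells were grouped by these same genes, their levels describe the population and do not test it. The list held secreted proteins (*Lcn5*, *Rnase9*, *Defb23*, *Spink11*, *Pla2g7*, *C4bp*, *Agt*, *Pgf* and *Adm*), membrane proteins (*Cldn7*, *Cd81* and *Folr1*), the steroid enzyme *Srd5a2* and *Gm6792*. *Cxcl14*, a chemokine, fell just short at 1.98.

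**Figure D2:**
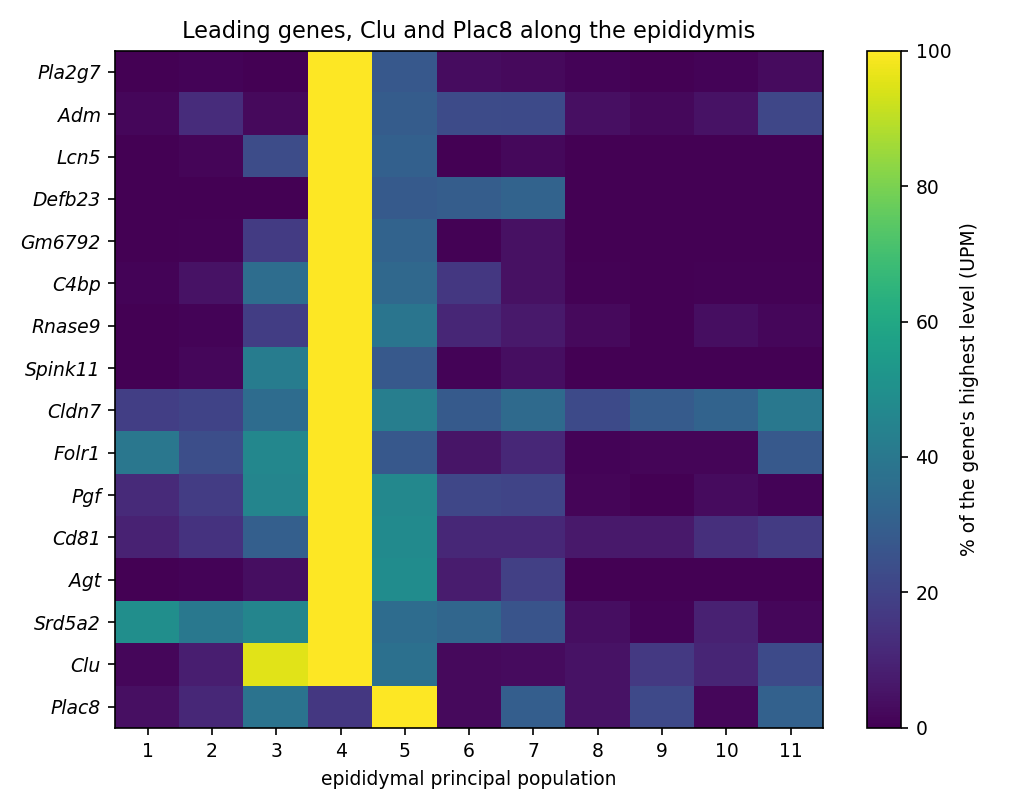
Level of the 14 leading genes, *Clu* and *Plac8* (rows) in the 11 epididymal principal populations (columns), as a percentage of the gene's highest level. The leading genes peaked in principal 4, with *Lcn5*, *Gm6792* and *Rnase9* next in principal 5, while *Clu* was as high in principal 3 and *Plac8* peaked in principal 5.

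*Pla2g7*, which encodes the secreted platelet-activating factor acetylhydrolase, had the largest ratio over the next population, 3.63 (2.54 to 5.17), with 62 UMIs in 30 cells. *Lcn5* was at 148338 UPM (155416 in caput and 146561 in corpus cells), 3.25 times the level of principal 5. *Gm6792* (30899 UPM, 3.15 times principal 5), *Spink11* (56494 UPM, 2.39 times principal 3) and *C4bp*, the C4b-binding protein that restrains complement (6686 UPM, 2.79 times principal 3), shared this pattern. *Lcn5*, *Gm6792*, *Rnase9*, *C4bp* and *Spink11* were next in principal 3 and 5, whose cells are from the caput and from the caput and corpus.

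*Defb23*, a beta-defensin gene (chromosome 2, 152459055 to 152464620), differed from them in that principal 7 of the corpus came next. It was at 4116 UPM in caput cells and 14205 UPM in corpus cells of principal 4, and at 3859.7 UPM in principal 7 and 36.1 UPM in principal 3. After thinning, it had a UMI in 63.6% of 11 caput cells and all 29 corpus cells of principal 4 (unthinned 52.6% of 19 and 90.9% of 55), and in 0.410% and 4.27% of basal cells from the caput and corpus.

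The less abundant leading genes encode membrane and signalling proteins. *Cldn7*, a tight junction claudin, was at 1348 UPM, 2.34 times principal 5, and *Cd81*, a tetraspanin, at 2078 UPM, 2.08 times principal 5. *Agt*, the angiotensin precursor, was at 1017 UPM (2.06 times principal 5). *Srd5a2*, the 5-alpha reductase that makes dihydrotestosterone from testosterone, was at 304 UPM (303 in caput and 305 in corpus cells), 2.02 times principal 1 (1.31 to 3.04). *Folr1* (folate receptor), *Pgf* (placental growth factor) and *Adm* (adrenomedullin) had only 24, 32 and 27 UMIs. The principal populations of the vas deferens were outside the leading comparison. *Folr1* was at 209 UPM in principal 4 and 212 UPM in principal 15 of the vas deferens, and *Cldn7* at 719 UPM in principal 13. Each other leading gene was more than 2 times higher in principal 4 than in those populations. *Adm* is also a basal cell marker: after thinning it had a UMI in 15% of principal 4 cells (17.6% unthinned) and in 41.8% and 53.0% of basal cells from the caput and corpus, and the part of basal RNA in it was not tested.

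Ribosomal protein genes made up 2.14% of the UMIs of principal 4 (2.06 to 2.23), the lowest share among the 15 principal populations. Principal 5 had 15.7%, and the other epididymal populations lay between 5.08% (principal 10) and 21.2% (principal 9). Caput and corpus cells were alike, with 2.29% and 2.10% in principal 4 and 15.8% and 15.7% in principal 5. Single cells ranged from 0% to 7.08% with a median of 1.85% in principal 4, and from 0.478% to 28.8% with a median of 12.4% in principal 5. All 74 cells were below the first quartile of principal 5, and 38 of its 239 cells were at or below the highest cell of principal 4. The share in principal 4 varied little with depth, from 1.76% in cells of under 500 UMIs to 2.20% in cells of 2000 and over, while in principal 5 it went from 9.94% to 16.7%.

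**Figure D3:**
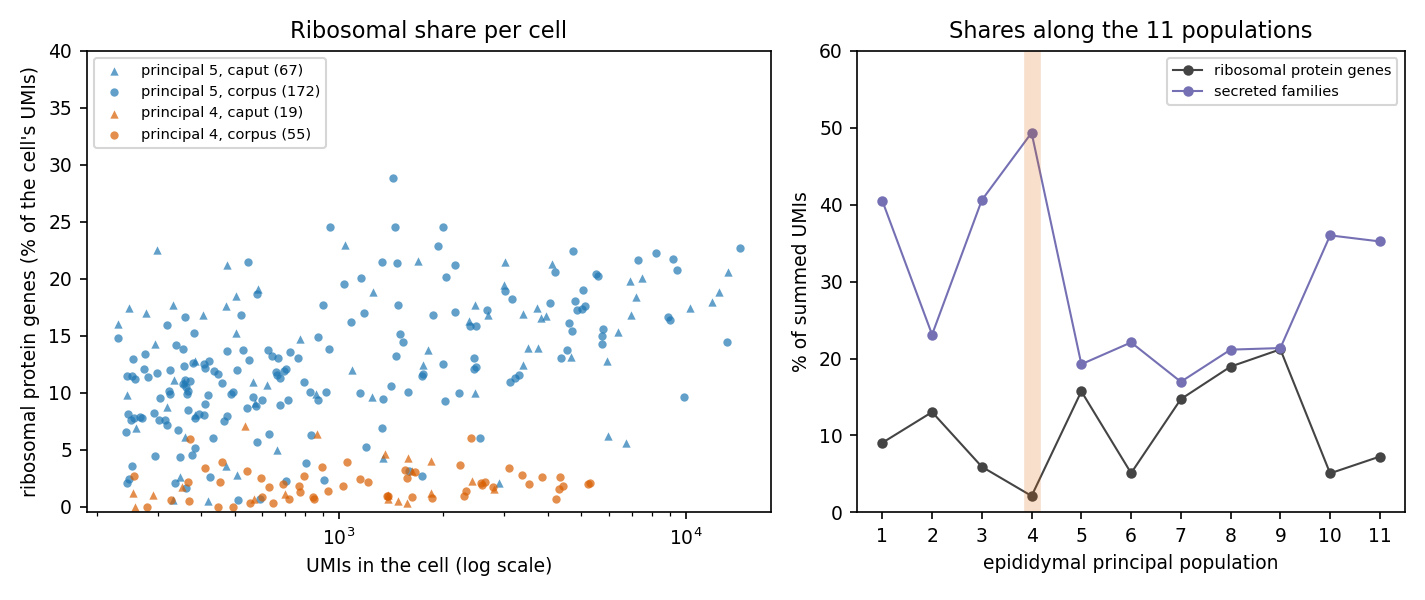
On the left, the share of ribosomal protein genes in the UMIs of each cell (y axis, percent) against the UMIs of the cell (x axis, log scale) for principal 4 (orange) and principal 5 (blue), with triangles for caput and circles for corpus cells. The 74 cells of principal 4 sat between 0% and 7.08% at every depth. On the right, the shares of ribosomal protein genes (black) and of the secreted families (purple) in the summed UMIs of the 11 epididymal principal populations, with principal 4 shaded at the lowest ribosomal share, 2.14%, and the highest secreted share, 49.3%.

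The deposited counts had passed the authors' removal of free RNA, which took 111 to 148 UMIs from each cell of principal 4 (median 120) and 112 to 152 from each of principal 5 (median 122). That was 7.46% and 5.91% of their UMIs before the removal. Of all nonzero values of a gene in a cell of principal 4, 68.5% were single UMIs, but of the ribosomal ones only 1.37% were (65.1% and 0.787% in principal 5). The part of the removal in the ribosomal difference can be bounded. Had every UMI removed from principal 4 been ribosomal, its share would have been 9.44% before removal. The share of principal 5 would have been 14.8% with none of its removed UMIs ribosomal. In cells of at least 2000 UMIs (20 and 71 cells), these limits were 5.68% and 16.3%. The limits of the populations did not meet in either set of cells.

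Gene by gene, principal 4 had far fewer genes above principal 5 than below it. Among genes that reached 20 UMIs in principal 4, 2 of 388 (0.515%) were at least 4 times higher in it. These were *Slc16a1*, a lactate transporter (4.04, 2.18 to 7.47), and *Ggh*, a lysosomal hydrolase of folates (4.01, 2.06 to 7.78), with 23 and 20 UMIs in principal 4. All 20 UMIs of *Ggh* were in corpus cells, and neither gene passed in caput cells alone or in cells of at least 1000 UMIs. At least 4 times lower were 432 of 1177 (36.7%). These 1177 genes had 20 UMIs in principal 5 and a level there of at least 4 times the principal 4 floor of 26.1 UPM. At 2-fold, 105 of 388 (27.1%) were higher and 1478 of 2476 (59.7%) lower, with the floor condition at 2 times. The higher and lower sides were thus filtered differently, and their percentages are not directly comparable.

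This split depends on the denominator. With the secreted families left out of the denominator, every ratio grew by a factor of 1.59 (0.672 on the log2 scale). The genes of these families were then not tested either. Of the tested genes, 48 of 346 (13.9%) were then at least 4 times higher and 192 of 682 (28.2%) at least 4 times lower. The 953 genes whose mean level over both populations was at least 100 UPM, called measured below, had a median ratio of 0.475. This filter treats both populations alike. Of these 953 genes, 32.4% were higher in principal 4, 12.2% at least 2 times higher and 51.4% at least 2 times lower. The lists below are set against these values.

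**Figure D4:**
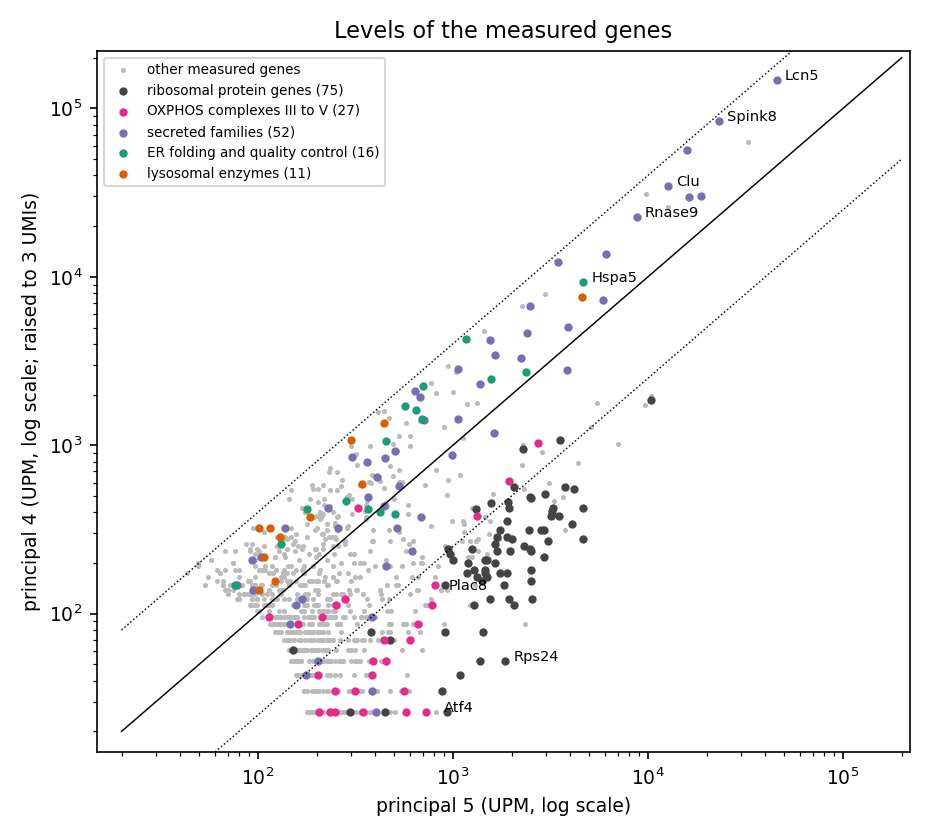
Levels of the 953 measured genes in principal 5 (x axis, UPM, log scale) and principal 4 (y axis, UPM, log scale, with low values raised to 3 UMIs); the solid line marks equal levels and the dotted lines 4-fold differences. Abundant secreted genes, ER chaperones and lysosomal enzymes lay above the line of equal levels or near it, and ribosomal and respiratory chain genes below it.

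Most genes for the entry and folding of proteins in the ER were higher in principal 4, on a background where most measured genes were lower. Of 16 measured folding genes, 14 were higher (median ratio 1.98), led by *Manf*, a small ER protein induced by unfolded proteins, at 4073 UPM in caput and 4351 UPM in corpus cells (ratio 3.69, 3.26 to 4.17), and the co-chaperone *Dnajb9* (3.18). *Hspa5*, the main ER chaperone, was at 9285 against 4663 UPM (1.99, 1.85 to 2.14). The summed level of the list was 1.82 times that of principal 5 in caput cells and 2.01 times in corpus cells. The lowest measured member, *P4hb*, had a ratio of 0.771 (0.548 to 1.06), an interval that includes 1. With the secreted families left out of the denominator all 16 were higher, and so were 369 of the 901 measured genes outside the secreted families (41%, median ratio 0.696), the values against which later counts in this second scaling are set.

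Of 21 measured genes for translocation into the ER and removal of the signal peptide, 16 were higher (median 1.60), among them *Ssr2*, part of the translocon (3.31), and *Dad1*, part of the oligosaccharyl transferase (2.77). The small subunits of the translocation channel, *Sec61b* and *Sec61g*, went the other way with ratios of 0.0365 (0.00439 to 0.133) and 0.161 (0.0911 to 0.264). Transport from the ER to the Golgi was higher in 13 of 19 measured genes (median 1.40), with *Tmed2* and *Tmed4*, cargo receptors of transport vesicles, at 2.52 and 2.68. Of the 4 measured genes of the unfolded protein response 2 were higher and 2 lower, also with the secreted families left out of the denominator. *Herpud1* was higher (1.64) and *Ddit3* and *Atf4*, transcription factors of the stress response, were lower. *Ddit3* had a ratio of 0.114 (0.0661 to 0.184). *Atf4* had no UMI in the 74 cells and 395 UMIs in principal 5 in the counts as deposited. With the count of 0 raised to 3 UMIs, it was 31.3-fold higher in principal 5, and the interval of the ratio was 0 to 0.0395.

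Lysosomal, tetraspanin and junction genes were higher than in principal 5 as well. Of 11 measured lysosomal enzymes, all 11 were higher (median 2.03), with the proteases *Ctsl* at 3.60 (2.81 to 4.61) and *Cpq* at 3.18. All 4 measured tetraspanins were higher, and of 6 measured genes of junctions and polarity 5 were, among them the adhesion protein *Epcam* (3.83, 3.12 to 4.71) and *Cldn3* (3.03). *Ezr*, which links membranes to actin in the cytosol, was the exception (0.304, 0.159 to 0.534). The lists of lysosomal enzymes, tetraspanins, proteasome subunits, glycolytic enzymes, nuclear RNA binding proteins, and chaperonin and actin genes were written after values had been seen.

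Not all of these lists were at their highest in principal 4. Lysosomal enzymes held 1.35% of its UMIs against 1.99% in principal 6, and ER to Golgi transport 0.570% against 0.621% in principal 6. Tetraspanins held 0.338% against 0.354% in principal 3. The share of ER folding genes, 2.95%, exceeded that of the other epididymal populations, of which principal 6 came next with 2.36%.

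Among the secreted families, the members differed. All 3 measured *Rnase* genes and all 4 measured lipocalin genes were higher, as were 8 of 9 measured *Spink* and *Spint* genes, of which *Spint4* was lower (0.623, 0.429 to 0.883). Of 19 measured beta-defensin genes, 11 were higher and 8 lower, and with the secreted families left out of the denominator 15 and 4. *Defb23* (3.51) and *Defb10* (2.33) stood at one end and *Spag11b* (0.0432, 0.00520 to 0.158) and *Defb12* (0.249) at the other. *Wfdc10* was higher (2.23) and *Wfdc8* and *Wfdc13* lower (0.421 and 0.379). Of 14 measured genes for proteins that bind or mature sperm, 13 were higher, among them *Crisp4* (2.81), *Crisp1* (2.69) and *Adam7* (1.48).

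The lists of genes for cytosolic, mitochondrial and nuclear proteins were lower. All 75 measured ribosomal protein genes were lower, also with the secreted families left out of the denominator. In the main scaling 68 of them were at least 4 times lower, with ratios from 0.0186 (*Rpl36a*, 2 UMIs, 0.00225 to 0.0676) to 0.415 and a median of 0.124. *Rps21* was among the least reduced (0.415, 0.338 to 0.506), with 948 UPM. Ribosomal protein genes have many processed pseudogenes, and reads shared with these were not counted in either population. All 19 measured translation factors were lower as well (median 0.193), from *Eef2*, the translocase of elongation (0.664), to *Tpt1*, which encodes a translationally controlled protein (0.0370). With the secreted families left out of the denominator, 18 of the 19 translation factors stayed lower and *Eef2* turned.

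In the respiratory chain, 26 of 27 measured nuclear genes of complexes III to V were lower (median 0.140), and so were 14 of 19 of complex I (median 0.455, close to that of all measured genes), and 25 and 12 with the secreted families left out of the denominator. The measured gene of complexes III to V that was higher, named after its value was seen, was *Cox6a1* of complex IV (1.31, 0.928 to 1.81). At the other end, *Cox6b1* and *Atp5e* were at 0.0302 and 0.0238, each with 2 UMIs. *Cyc1* and *Uqcrc1* of complex III were too low to count as measured, with ratios of 3.41 (1.69 to 6.79) and 1.34 (0.657 to 2.54). Genes of the mitochondrial genome are not analysed here. All 16 measured nuclear RNA binding proteins (median 0.275), all 7 measured chaperonin and actin genes (median 0.145) and both measured luminal keratins, *Krt8* (0.174) and *Krt18* (0.241), were lower. The 6 measured proteasome and 4 measured glycolytic genes were lower too, but their medians lay near that of all measured genes (0.426 for the proteasome), and 2 and 1 of them turned with the secreted families left out of the denominator. Of 19 measured immediate early genes, which dissociation can induce, 16 were lower and 14 in the other scaling (median 0.347), among them *Nfkbia* (0.135), and *Btg2* was higher (1.35). Against principal 3, some lists were level. Luminal keratins held 0.0574% of the UMIs in principal 4, 0.0589% in principal 3 and 0.258% in principal 5. Immediate early genes held 0.696%, 0.662% and 1.44%, and unfolded protein response genes 0.177%, 0.174% and 0.332%. The other lists of this paragraph held less in principal 4 than in principal 3, such as complexes III to V (0.435% and 0.722%).

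**Figure D5:**
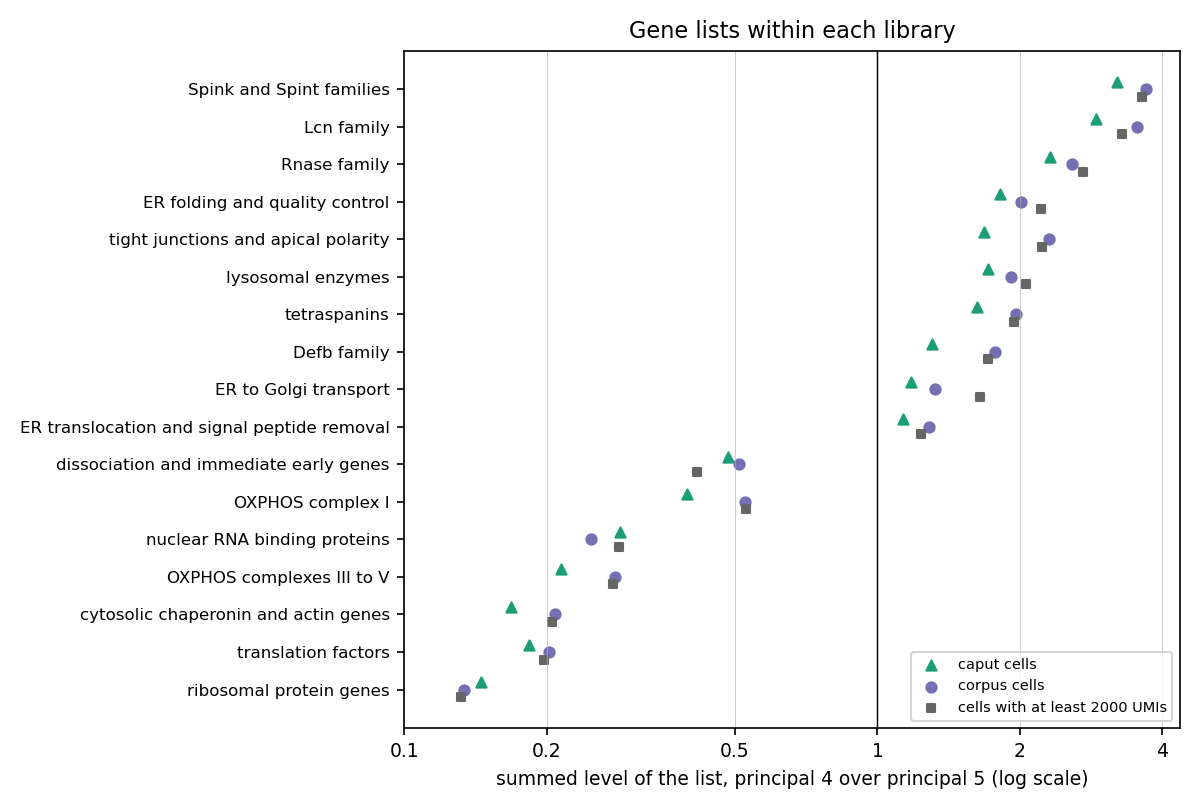
Summed level of each gene list in principal 4 over principal 5 (x axis, log scale) within caput cells (triangles), within corpus cells (circles) and in cells of at least 2000 UMIs of both libraries (squares); the vertical line marks equal levels. Each list shown lay on the same side of the line in all 3 sets of cells, from 0.146 and 0.134 for ribosomal protein genes to 3.21 and 3.68 for the *Spink* and *Spint* families in caput and corpus cells.

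The 15 genes lowest against principal 5 were 9 ribosomal protein genes, *Atf4*, *Atp5e*, *Cox6b1*, *Nme2*, *Sec61b* and *Tpt1*, and they had almost no single UMIs in the table. *Rps24* had 6 UMIs in 2 cells of principal 4 and 898 UMIs in principal 5, and none of its 830 nonzero values was a single UMI. *Atf4* had 3 single UMIs among 547 nonzero values. Whether the removal of free RNA took their single UMIs was not tested, and the folds were also computed with an allowance for it. In cells of at least 2000 UMIs, *Rps24* had no UMI in 20 cells of principal 4 against 2019 UPM in principal 5, and *Atf4* none against 886 UPM. If each of those deep cells without a UMI had lost 1, the genes would still be 1.61 (*Rpl7a*) to 8.11 (*Rps28*) times higher in principal 5, with *Rps24* at 6.73 and *Atf4* at 2.96. The direction of these genes held under that allowance of 1 UMI, and the folds were far smaller. The allowance is not an upper limit on the loss. Nonzero values of ribosomal protein genes in principal 4 had a median of 3 UMIs, and larger losses per cell were not computed.

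The markers of segments 5 and 6, the distal caput and proximal corpus, held 21.1% of the UMIs of principal 4. They held 7.64% in principal 3 and 7.36% in principal 5. They include *Rnase9*, *Clu* and *Plac8*, the markers given for principal 4, so this describes the label and does not test it. The 3 markers of segments 3 and 4 summed to 0.0722% in principal 4, against 0.699% in principal 3 and 0.0877% in principal 5. Of the 7 markers of segments 5 and 6, *Lcn5*, *Clu* and *Rnase9* were at their highest among the 11 epididymal populations in principal 4. For *Clu* the ratio over principal 3 was only 1.05. *Spink12*, *Defb21* and *Wfdc8* had ranks of 2, 2 and 3, and *Plac8* a rank of 6. Of the segment 7 markers, *Defb23* had a rank of 1, *Spint5* of 3 (496 UPM) and *Wfdc13* of 5, and *Gdf15* and *Npy* had only 2 and 8 UMIs. The markers of segments 1 and 2 had ranks of 4 or lower and led in principal 1, 2 or 7, among them *Lcn2* with 426 UPM and *Rnase10*, *Defb1* and *Defb48* with no UMI. The cauda markers *Gpx3* and *Ptgds* had a rank of 8, at 869 and 2843 UPM.

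Enzymes of redox defence and regulators were mixed. Of the lists with measured genes, 2 that are not in the plot of gene lists changed side between the libraries, *Gpx* genes (3.18 times principal 5 in caput and 0.631 times in corpus cells, by summed level) and antioxidant enzymes (0.843 and 1.16). Of 8 measured antioxidant enzymes 3 were higher, with *Prdx1*, a peroxiredoxin, at 2729.9 against 1040.3 UPM (2.62, 2.27 to 3.03), and 5 lower, with *Prdx5* at 0.142 (0.0380 to 0.372). *Mgst1*, a glutathione S-transferase of the ER membrane, was higher (3.08, 2.51 to 3.78), and *Gstm1*, a cytosolic one, lower (0.324, 0.192 to 0.517). *Cst3* and *Cstb*, cystatins of which the first is secreted and the second cytosolic, were at 3.28 (2.76 to 3.90) and 0.255 (0.0915 to 0.576). All 3 measured transcription factors of the duct had ratios under 1 (median 0.684), of which 2 exceeded 1 with the secreted families left out of the denominator. That list held 0.0591% of the UMIs in principal 4, 0.0571% in principal 3 and 0.133% in principal 5. *Srd5a2* was the only measured gene of the list of hormone receptors and 5-alpha reductases.

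Within principal 4, some genes differed between caput and corpus cells, while each leading gene had UMIs in both. For *Adm* these were only 2 UMIs in caput cells, under the floor of 3. After thinning, neither *Pgf* nor *Srd5a2* had a UMI in the 11 caput cells kept. At least 4 times higher in caput cells were 9 of 83 genes (10.8%), and at least 4 times higher in corpus cells 6 of 117 (5.13%). Genes of the corpus side also had to reach 4 times the caput floor of 130.0 UPM. *Gpx5*, a secreted glutathione peroxidase of the caput, had 396 UMIs in 6 of 19 caput cells and 1 UMI in 55 corpus cells. *Slc38a5*, an amino acid transporter, had 38 UMIs in caput and none in corpus cells, 50.5-fold higher in the caput with the corpus count raised to the floor. *D730048I06Rik*, *Defb20*, *Bsph1* (a sperm-binding protein) and *Spink2* were 63.9, 23.3, 18.6 and 6.49 times higher in caput cells. In principal 5 these ratios were 21.1, 39.5, 24.2 and 4.75. *Spink5* was at 2383 UPM in caput and 218 UPM in corpus cells of principal 4.

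*Crisp1*, a cysteine-rich protein that sperm take up in the epididymis, was 17.4 times higher in corpus cells (9.66 to 35.0), with 11 and 762 UMIs, and 5.99 times in principal 5. *Tsc22d1*, a leucine zipper protein (6.46), *Cd52*, a surface glycopeptide passed to sperm (6.09), and *Lipg*, a secreted lipase (5.10), were higher in corpus cells as well, against 1.64, 1.97 and 1.01 in principal 5. *Rpl27a* and *Rpl26*, ribosomal protein genes, were 4.18 and 3.85 times higher in corpus cells, against 0.977 and 0.942 in principal 5. Whether these ratios differ between the populations was not tested.

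The caput cells were themselves uneven. The 6 caput cells with *Gpx5*, singled out after the values had been seen, held 11 to 189 UMIs of it each. These cells were deeper (median 1595 UMIs) than the other 13 caput cells (864). They also held 300 of the 321 UMIs of *D730048I06Rik* in caput cells (in 4 of the 6) and 71 of the 82 of *Defb20* (in 5 of the 6). The levels were 28969 and 6856 UPM, against 1650.4 and 865 UPM in the other 13. *Lcn5* was at 154886 and 155847 UPM and *Clu* at 46253 and 41575 UPM in these sets of cells. Of the 55 corpus cells, 35 had a UMI of *Crisp1*, and these were deeper (median 1565 UMIs) than the other 20 (614). Their levels of *Lcn5*, *Rnase9* and *Clu* differed from those of the other 20 by factors of 0.986, 0.990 and 1.06.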

How the data were processed

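The caput, corpus and cauda epididymidis and the vas deferens of adult mice were profiled by 10x single-cell RNA-seq, 1 library per region. The authors aligned reads to mm10 with HISAT2 2.0.4, counted UMIs per gene with ESAT on RefSeq transcripts without multimapping reads, selected barcodes by total UMIs, and subtracted free RNA with a modified SoupX. The deposited counts are whole numbers for 16892 genes in 8880 cells (8837 distinct barcodes, 43 present in more than 1 library), and a deposited table gives each cell's total count before the subtraction, library, cluster and t-SNE score. It also holds a size factor, the cell's ratio of depth by scran according to the authors, which was not used. Mitochondrial genes and nuclear-retained RNAs are not analysed here. Populations were taken from the authors' annotation.

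UMIs were summed per population and divided by the total (numpy 2.4.6, pandas 2.3.3, scipy 1.17.1). The 95% intervals are Clopper-Pearson for shares, exact Poisson for single levels, and for ratios exact binomial given the summed count. Shares of cells with a UMI were taken after thinning each cell to 1000 UMIs. Fold counts required 20 UMIs in the higher population with a 4-fold difference, or 2-fold over every other epididymal principal population for leading genes. For counts between 2 sets of cells, the higher level also had to reach that fold over the floor of the other set. With 1 library per region and clusters built from the same counts no test was run. Simulated doublets scored by nearest neighbours (scikit-learn 1.9.0) marked 178 cells, which were kept. Scripts were tested on simulated data. Gene positions are from RefSeq GRCm38.p6, in which 15927 symbols matched.

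The named genes are the population's 3 markers and the segment markers, the 15 genes with the largest ratio over the next population, the 15 with the largest and the 15 with the smallest ratio over principal 5, the 15 with the most UMIs, up to 4 extreme members of each of 43 gene lists, and the 8 with the largest caput or corpus ratio. Of these, 1 gene is not reported here. The members and lists were chosen with earlier results of these data known, and 6 further lists were added after values of this comparison had been seen. Alternatives changed the depth of cells, the library, doublets, thresholds, thinning and denominator.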

Additional observations from a re-analysis of the deposited data

Results flagged for a closer look

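*Cd52* and *Lipg* were on opposite sides of principal 5 in the caput and corpus libraries. Only the named genes were screened for this. Both are among the genes with a large corpus over caput ratio within principal 4, so the split follows in part from that choice. The ratio of principal 4 over principal 5 for *Cd52* was 0.474 in caput cells (8 UMIs in principal 4, interval 0.201 to 0.963) and 1.46 in corpus cells (194 UMIs, 1.23 to 1.74). For *Lipg* it was 0.295 in caput cells (3 UMIs, 0.0596 to 0.894) and 1.49 in corpus cells (61 UMIs, 1.08 to 2.03). Each library is a single sample, and the difference between the libraries was not tested.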

How the results depend on the processing

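No paired analysis was possible because each region has 1 library and the labels carry no replicate numbers. Of 71 values recomputed under alternatives, 39 stayed within their interval or within 1.5 times the count, 31 moved and 1 reversed. The reversed value was *Clu* over principal 3, 0.958 in cells of at least 1000 UMIs, and the cause was not tested. The same ratio was 1.33 in caput cells, 2.67 in corpus cells (where principal 5 came next) and 1.25 as a mean over cells.

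The ribosomal share of principal 4 was 2.29% in caput cells, 4.23% with the secreted families left out of the denominator and 9.44% with all removed UMIs counted as ribosomal, against 19.5% and 20.7% in principal 5 under the second and the last setting. The secreted share was 52.8% in caput cells, 48.5% in corpus cells, 45.9% without *Clu* and 49.0% in cells of at least 2000 UMIs, a setting chosen after seeing the data. *Rnase9* over the next population was 2.72 in corpus cells and 2.21 as a mean over cells. *Plac8* over principal 5 was 0.0849 in caput cells, and the share of cells with *Plac8* was 5.08% after thinning to 500 UMIs.

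The genes higher than principal 5, 2 of 388 tested (0.515%), became 10 of 316 in corpus cells (3.16%) and 105 of 388 at 2-fold (27.1%). They were 0 of 388 at 8-fold, 0 of 148 with 50 UMIs required and 7 of 806 with 10 UMIs required (0.868%). With the secreted families left out of the denominator they were 48 of 346 (13.9%). In cells of at least 2000 UMIs they were 7 of 249 (2.81%). Neither *Slc16a1* nor *Ggh* was among those 7, the 3 genes in cells of at least 1000 UMIs or the 2 in caput cells, and 1 of them was among the 10 in corpus cells. The lower genes, 432 of 1177 tested (36.7%), became 125 of 238 in caput cells (52.5%). They were 1478 of 2476 at 2-fold (59.7%) and 114 of 555 at 8-fold (20.5%). With the secreted families left out they were 192 of 682 (28.2%), and in cells of at least 2000 UMIs 282 of 644 (43.8%). The 14 leading genes of 388 became 0 at 4-fold and 22 of 806 with 10 UMIs required (2.73%). In cells of at least 2000 UMIs 13 of 249 led (5.22%), and 9 of the 14 were among them. In corpus cells alone, with only 5 populations left to compare, 21 of 316 led (6.65%), and 9 of the 14 were among them. The genes higher in caput cells, 9 of 83 tested, became 17 of 83 at 2-fold and 18 of 170 with 10 UMIs. Those higher in corpus cells, 6 of 117 tested, became 68 of 265 at 2-fold.

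Leaving the secreted families out of the denominator turned the median ratio of 4 lists from under 1 to over 1, namely segment 7 markers (0.986 to 1.57), *Wfdc* genes (0.984 to 1.57), *Gpx* genes (0.879 to 1.40) and transcription factors of the duct (0.684 to 1.09). The 23080 UMIs of the caput cells limit what can be seen there, and at a median of 1180 UMIs per cell many transcripts of low genes go unseen. Whether another animal or dissection would give the same population cannot be told from 1 library per region.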

Other observations

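The most abundant genes varied among the cells of principal 4 as a share of the UMIs of a cell. The middle quartiles of cells lay between 12.4% and 17.1% for *Lcn5*, and between 6.70% and 10.5% for *Spink8*. *Spink8* had a median share of 6.69% in caput and 9.49% in corpus cells, and the ranges overlapped (2.93% to 9.18% and 3.80% to 17.6%). *Lcn5* had medians of 16.5% and 13.9%.

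Some genes with large ratios to principal 5 stand outside the gene lists. *Ceacam10*, a secreted adhesion-family protein, had 184 UMIs and a ratio of 3.60 (2.94 to 4.41), with 2.13 in caput and 5.47 in corpus cells. *Cisd1*, an iron-sulfur protein of the outer mitochondrial membrane, had 22 UMIs and a ratio of 3.86 (2.06 to 7.19), while most measured genes of the respiratory chain were lower. *Efna1*, a membrane-bound ephrin ligand, had 37 UMIs and a ratio of 3.39 (2.14 to 5.34).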
